A study of Homo sapiens with 8 samples.

Results

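The C2H2 zinc finger genes of human chromosome 19 were followed in stromal cells before and after freezing. The members were chosen by name and position: genes whose symbol is ZNF, a number and at most 1 further letter, that lie on chromosome 19 and that had at least 100 counts summed over the 8 libraries. Of 23354 genes, 248 on chromosome 19 bore such a name, and 233 of them met the count limit. Of the 15 others, 2 were at 0 in every library. ZNF724P (104 counts) and ZNF20 (108 counts) lay just inside the limit, and ZNF321P (80 counts) and ZNF667 (50 counts) just outside it. All 233 members passed the filter on low counts.

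C2H2 zinc finger proteins bind DNA through tandem fingers, each of which contacts a few bases, so that an array of fingers reads a long sequence. Most of those encoded on chromosome 19 also carry a Krüppel-associated box (KRAB), which binds TRIM28, a scaffold for the histone methyltransferase SETDB1, heterochromatin protein 1, the NuRD deacetylase complex and DNA methyltransferases. These genes arose by tandem duplication in primates and earlier mammals, stand in clusters, and many of their proteins bind and silence transposable elements.

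RNA was sequenced from mesenchymal stromal cells grown from H9, an established line of human embryonic stem cells. The osmolyte-frozen group held 3 libraries: cells kept 2 h in a solution labelled SMC and cells kept 1 h in solutions labelled SGC and SGI, all cooled at 3 °C per minute. The DMSO-frozen group held 2 libraries, of cells kept 1 h or 0 h with DMSO, a permeating cryoprotectant, and cooled at 1 °C per minute. The fresh group held 3 libraries of unfrozen cells: one taken at 0 h, one kept 1 h with DMSO and one kept 1 h in medium. Solution and cooling rate cannot be told apart. Hold time differed as well, at 1 to 2 h in the osmolyte-frozen group and 0 to 1 h in each of the others. No unfrozen osmolyte library was analysed here, so that osmolyte exposure and freezing cannot be told apart either. Each library was of a condition of its own, and the labels do not name separate cultures. The p-values therefore measure the spread between unlike libraries, which may be technical. In bulk RNA, fewer cells of a type and less RNA per cell cannot be told apart.

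The sum of counts was between 41198716 and 51166666 per library. Of 12 mesenchymal stromal markers, all tested, 3 were higher and 7 lower in osmolyte-frozen than in fresh cells. Over all genes tested, 19.1% were higher and 21% lower in that comparison. The summed level of the 12 markers was 57787 to 78243 counts scaled to a library size of 1000000 (CPM) in osmolyte-frozen libraries. It was 59083 and 69657 CPM in DMSO-frozen and 56391 to 61732 CPM in fresh libraries. The blood markers CD3E and HLA-DRA were at 0 in every library, and CD14 and PTPRC averaged at most 0.125 CPM in any group. CD34, the one blood marker that passed the filter, averaged 2.13 CPM in osmolyte-frozen, 1.71 CPM in DMSO-frozen and 1.85 CPM in fresh libraries and was not called in any comparison. Pluripotency markers, of which 7 of 10 were tested and 4 were higher in osmolyte-frozen than in fresh cells, summed to 12.9 to 17.3 CPM in osmolyte-frozen, 8.92 and 9.23 CPM in DMSO-frozen and 9.51 to 10.8 CPM in fresh libraries. MALAT1 and NEAT1, which are retained in the nucleus, together took 0.846% to 0.948% of counts in osmolyte-frozen, 0.393% and 0.452% in DMSO-frozen and 0.472% to 0.567% in fresh libraries. With them, 4 of 8 genes of a list of nuclear and structural RNAs were higher than in fresh cells. Of 4 epithelial markers, 2 were higher and 1 lower, and of 3 endothelial markers 1 was higher. The summed pluripotency level and the share of MALAT1 and NEAT1 were higher in every osmolyte-frozen library than in every other library. Not every gene of the 2 lists rose against fresh cells. RMRP had a log2 fold change of -0.605 and SALL4 of -0.336, neither called. The summed mesenchymal level overlapped between groups, but most of it was COL1A1 and COL1A2, at means of 37920 and 24190 CPM in osmolyte-frozen libraries. The 7 mesenchymal markers lower than in fresh cells were CD44 (log2 fold change -1.05), PDGFRA (-0.95), ENG (-0.74), ALCAM (-0.73), NT5E (-0.52), LEPR (-0.48) and PDGFRB (-0.34). The 3 higher were MCAM (0.38), COL1A1 (0.32) and THY1 (0.22). The part of all these markers in the results on zinc finger genes was not tested.

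The members lay in 15 groups along the chromosome when a gap of over 1 Mb was taken to part them. The 200 bases before the RefSeq start site (GRCh38.p14) are printed for 6 members, in the direction of transcription. The first 3 lie in the cluster at 19.78 to 24.31 Mb of hg19, were all higher in osmolyte-frozen than in fresh cells, and carry GGGCGG, the core of a GC box, and CCAAT, the core of a CCAAT box, which are in capitals. In ZNF737 the capitals also mark CTTCCGG, which is the ETS-type motif CCGGAAG on the other strand.
ZNF93: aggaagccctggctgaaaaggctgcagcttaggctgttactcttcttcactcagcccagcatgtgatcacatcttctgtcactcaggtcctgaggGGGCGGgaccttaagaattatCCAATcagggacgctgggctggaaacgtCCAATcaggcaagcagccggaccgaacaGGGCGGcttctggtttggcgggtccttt
ZNF682: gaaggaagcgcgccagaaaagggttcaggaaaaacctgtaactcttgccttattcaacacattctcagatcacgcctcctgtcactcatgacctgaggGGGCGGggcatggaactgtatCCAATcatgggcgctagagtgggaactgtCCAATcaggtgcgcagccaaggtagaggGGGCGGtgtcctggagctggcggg
ZNF737: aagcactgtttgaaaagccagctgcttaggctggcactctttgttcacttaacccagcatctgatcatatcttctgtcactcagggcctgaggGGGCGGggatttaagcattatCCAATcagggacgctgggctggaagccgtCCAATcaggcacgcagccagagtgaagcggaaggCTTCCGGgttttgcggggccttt
They are at chr19:19900746-19900945 on the plus strand for ZNF93, chr19:20039506-20039705 on the minus strand for ZNF682 and chr19:20565782-20565981 on the minus strand for ZNF737. Each held the CCAAT motif at 2 places. Aligned end to end, ZNF93 and ZNF737 were identical at 82.3% of aligned columns, ZNF93 and ZNF682 at 67.0%, and ZNF682 and ZNF737 at 63.0%. Across the cluster, the CCAAT box core, searched as ATTGG on both strands, was present in 23 of 23 promoters and GGGCGG together with it in 17 of 23. Of those 17 members, 7 were higher in osmolyte-frozen than in fresh cells, and of the 6 others in the cluster with a promoter, 4 were. Both were present in 75 of all 202 member promoters (37.1%), against 18.8% of protein-coding promoters, and also in 21 of 24 promoters at 11.59 to 12.74 Mb and 5 of 5 at 2.82 to 2.94 Mb. Of the 75 members with both, 22 were higher in osmolyte-frozen than in fresh cells, and of the 127 without, 42 were. Over all genes tested, 19.1% were higher.

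The next 3 lie in the cluster at 7.07 to 9.88 Mb and carry TGACGTCA, the palindrome bound by CREB and ATF factors, in capitals. They are shown because they share this motif near the start site and differed in direction between osmolyte-frozen and DMSO-frozen cells. From fresh to DMSO-frozen cells the direction was the same. The log2 fold changes there were 0.29, 0.24 and 0.26 in ZNF266, ZNF426 and ZNF561, and none was called.
ZNF266: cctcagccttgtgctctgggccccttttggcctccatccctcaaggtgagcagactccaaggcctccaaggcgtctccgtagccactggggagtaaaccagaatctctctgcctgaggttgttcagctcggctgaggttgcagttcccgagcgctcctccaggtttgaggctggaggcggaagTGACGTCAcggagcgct
ZNF426: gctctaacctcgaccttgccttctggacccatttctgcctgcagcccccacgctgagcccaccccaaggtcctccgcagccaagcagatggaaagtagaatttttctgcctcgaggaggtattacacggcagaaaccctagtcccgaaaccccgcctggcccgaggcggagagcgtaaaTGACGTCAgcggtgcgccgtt
ZNF561: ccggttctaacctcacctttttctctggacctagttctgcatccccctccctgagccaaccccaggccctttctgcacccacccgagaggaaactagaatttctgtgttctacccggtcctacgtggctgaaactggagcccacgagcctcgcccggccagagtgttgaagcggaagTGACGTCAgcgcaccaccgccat
They are at chr19:9435574-9435773 for ZNF266, chr19:9538646-9538845 for ZNF426 and chr19:9621233-9621432 for ZNF561, all on the minus strand. The motif began 17, 21 and 23 bases before the start site in ZNF266, ZNF426 and ZNF561. Identity in such an alignment was 62.0% between ZNF266 and ZNF426, 57.4% between ZNF266 and ZNF561 and 67.9% between ZNF426 and ZNF561. The identity of unrelated promoters was not measured, so the lower of these values are not evidence of likeness.

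Promoter windows of 250 bases before to 50 after the start were found for 202 members. Motifs were searched on both strands, and a window could hold several, overlapping ones included. CCGGAAG was present in 90 of 202 member promoters (44.6%), against 12.8% of 22199 promoters of protein-coding genes and 10.3% of all 35116 promoters. ATTGG was present in 52.5% of member promoters, against 34.7% of protein-coding and 34.6% of all promoters. GGGCGG was present in 66.8%, against 56.3% and 45%. TGACGTCA was present in 7 member promoters (3.47%), against 2.26% and 1.85%. Of those 7, 5 belonged to the cluster at 7.07 to 9.88 Mb: ZNF266, ZNF426, ZNF561, ZNF121 and ZNF562. A match is a run of letters, and binding was not measured.

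Expressed per kilobase of coding length, the members spanned a wide range of levels at a low median. The mean level over 8 libraries had a median of 1.89 CPM per kilobase and ran from 0.0968 for ZNF585B to 26.2 for ZNF428. ZNF428, which has 1 finger motif, was followed by ZNF146 at 26.1, ZNF358 at 20.2, ZNF580 at 14.1 and ZNF83 at 12.6 CPM per kilobase. ZNF146, also called OZF, encodes a protein made almost wholly of fingers with no KRAB. Of these 5, ZNF83 was the one with a KRAB match. On the CPM scale, 21 members averaged over 20 CPM and 14 under 1 CPM, with a median of 6.42 CPM.

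As a set the members were highest in the osmolyte-frozen libraries. They took 0.227%, 0.229% and 0.249% of all counts in the SMC, SGC and SGI libraries, 0.197% and 0.214% in the DMSO-frozen libraries held 1 h and 0 h, and 0.203%, 0.195% and 0.184% in the fresh libraries at 0 h, 1 h with DMSO and 1 h in medium. Every osmolyte-frozen library lay above every other library, and the DMSO-frozen and fresh ranges overlapped. Relative to each gene's own mean log2 CPM over 8 libraries, the members' median deviation was 0.14, 0.11 and 0.16 in the SMC, SGC and SGI libraries. It was -0.02 and 0.05 in the DMSO-frozen libraries held 1 h and 0 h, and -0.04, -0.11 and -0.21 in the fresh libraries at 0 h, 1 h with DMSO and 1 h in medium. Fresh cells after 1 h in medium were the lowest library, with 43 of 233 members above their own mean, and SGI the highest, with 180.

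**Figure D1:**
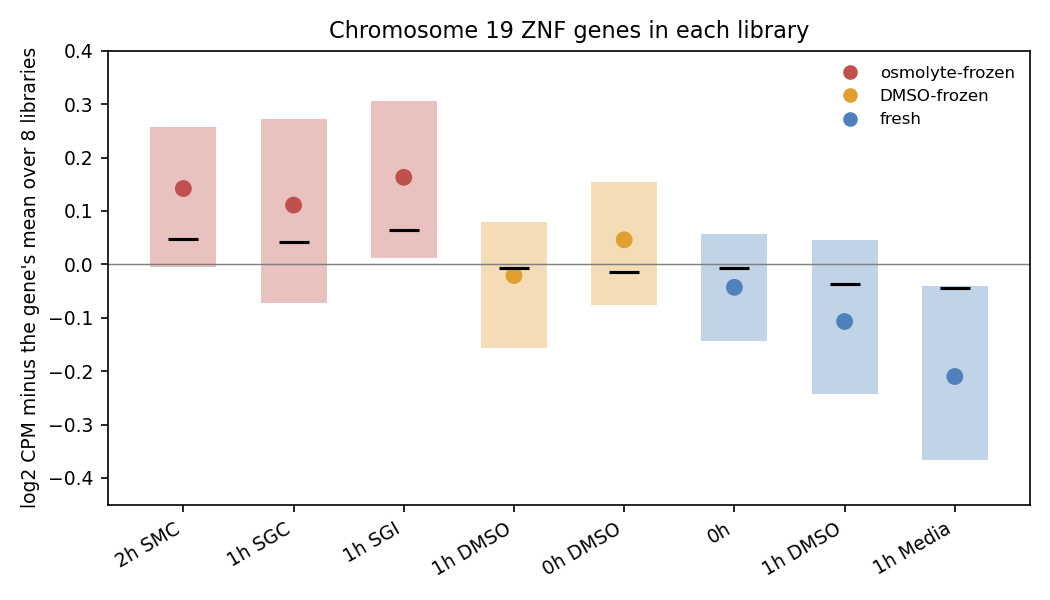
The vertical axis gives log2 CPM minus the gene's mean over 8 libraries, for the 233 members in each library. Points are medians, boxes run from the first to the third quartile, and black dashes are medians of 2682 other genes of like level and coding length, which lay nearer 0 than the members' median in each of the 8 libraries.

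Cells frozen in the osmolyte solutions were compared with fresh cells to ask how expression after this kind of freezing differs from that of cells never frozen. Of 233 members, 74 were higher in osmolyte-frozen cells (31.8%) and 3 were lower (1.29%), at an adjusted p under 0.05 in edgeR's quasi-likelihood test with Benjamini-Hochberg adjustment over 15564 genes. Over all genes tested, 19.1% were called higher and 21% lower. The members' median log2 fold change was 0.27, against 0.02 over all genes, and 195 members (83.7%) had a log2 fold change above 0, against 51.8% of all genes. In 96 members (41.2%) every osmolyte-frozen library lay above every fresh one, against 24.8% of all genes, and in 7 (3%) every one lay below, against 24.8%. The differences were small: 18 of the 74 reached 1.5-fold and 0 reached 2-fold.

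The shift was set beside that of 3 other sets of genes, as a description. Among the 2682 other genes whose level and coding length both lay between the members' 10th and 90th percentiles, 26.4% were higher, 15.5% were lower and the median log2 fold change was 0.09. The 154 members within the same limits had 29.2% higher, 1.95% lower and a median of 0.23. The sets were thus close in the share called higher and apart in the share called lower. ZNF genes on other chromosomes (257 tested) had 22.2% higher, 8.56% lower and a median of 0.13. The other genes of chromosome 19 (896 tested) had 22.2% higher, 8.48% lower and a median of 0.10.

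ZNF266, a KRAB gene with 12 finger motifs at chr19:9523271-9546234 (hg19), stood at 46.5, 40.1 and 42.7 CPM in the SMC, SGC and SGI libraries, at 28.5 and 28.1 CPM in the DMSO-frozen libraries held 1 h and 0 h, and at 25.1, 23.8 and 20.3 CPM in the fresh libraries at 0 h, 1 h with DMSO and 1 h in medium. The 3 groups did not overlap, and the osmolyte-frozen libraries were highest. The log2 fold change against fresh cells was 0.90 ± 0.09 (SE), with an adjusted p of 3.4e-07 in edgeR's quasi-likelihood test, and the call held in all 15 alternative settings. ZNF69, another KRAB gene, stood at 5.29, 5.98 and 6.01 CPM in the SMC, SGC and SGI libraries, 3.67 and 3.23 CPM in the DMSO-frozen libraries and 2.95, 3.41 and 3.01 CPM in the fresh libraries. Its osmolyte-frozen libraries lay above all others, while DMSO-frozen and fresh ones overlapped. The log2 fold change against fresh was 0.88 ± 0.15 (SE; adjusted p = 0.000121, edgeR).

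ZNF93, which binds and represses LINE-1 elements in human pluripotent cells, stood at 3.28, 3.93 and 4.05 CPM in the SMC, SGC and SGI libraries, 3.24 and 3.31 CPM in the DMSO-frozen libraries and 2.28, 2.00 and 1.99 CPM in the fresh libraries. Here all frozen libraries lay above all fresh ones, and the osmolyte-frozen and DMSO-frozen libraries overlapped. The log2 fold change of osmolyte-frozen against fresh cells was 0.84 ± 0.17 (SE; adjusted p = 0.000662, edgeR). Its cluster neighbours ZNF737 and ZNF682 rose as well, by log2 fold changes of 0.79 and 0.76. ZNF737 stood at 11.0, 10.2 and 13.5 CPM in the SMC, SGC and SGI libraries, 7.91 and 9.07 CPM in the DMSO-frozen libraries and 7.16, 6.19 and 6.79 CPM in the fresh libraries, with no overlap between the groups.

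ZNF418 stood at 7.83, 9.11 and 9.49 CPM in the SMC, SGC and SGI libraries, 4.28 and 5.88 CPM in the DMSO-frozen libraries and 6.04, 4.59 and 4.17 CPM in the fresh libraries. The osmolyte-frozen libraries lay above all others (log2 fold change against fresh 0.83, adjusted p = 0.000366, edgeR), and the DMSO-frozen range fell within the fresh one. The other members among the 10 largest rises were ZNF345 (0.90), ZNF540 (0.90), ZNF880 (0.76) and ZNF625 (0.74), by log2 fold change. Of these, ZNF625 shared 77.6% of its 50-base stretches with another gene, chiefly the ZNF625-ZNF20 readthrough. ZNF345 overlapped ZNF790 and ZNF829, and ZNF540 overlapped ZNF571, so reads of ZNF625, ZNF345 and ZNF540 are uncertain between genes. The ZNF540 call was also lost without either the osmolyte-frozen library SGC or the fresh library at 0 h or that in medium.

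All 3 members lower in osmolyte-frozen than in fresh cells were also lower than in DMSO-frozen cells. ZNF702P, a pseudogene by its symbol, stood at 9.98, 9.33 and 9.09 CPM in the SMC, SGC and SGI libraries, 12.5 and 13.8 CPM in the DMSO-frozen libraries and 14.0, 13.3 and 11.7 CPM in the fresh libraries. Its osmolyte-frozen libraries lay below all others, with a log2 fold change against fresh of -0.46 ± 0.10 (SE; adjusted p = 0.00183, edgeR). ZNF426 lay at 9.10, 7.90 and 9.96 CPM in the SMC, SGC and SGI libraries, 13.3 and 14.9 CPM in the DMSO-frozen libraries and 12.7, 11.7 and 11.2 CPM in the fresh libraries. Its groups did not overlap, with the osmolyte-frozen libraries lowest and the DMSO-frozen ones highest, and the log2 fold change against fresh was -0.40 (adjusted p = 0.00723, edgeR). That call ended when only libraries held 1 h were used. ZNF788 differed least, at a log2 fold change of -0.33 (adjusted p = 0.04, edgeR), and kept its call in 5 of 15 alternative settings.

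Members known for particular targets, named here for those roles and not by the rule on size, varied. ZNF274, which binds the 3′ ends of zinc finger genes and recruits SETDB1 there, rose against fresh by a log2 fold change of 0.36 (adjusted p = 0.00606, edgeR). It stood at 20.5, 18.9 and 16.5 CPM in the SMC, SGC and SGI libraries, 15.5 and 16.5 CPM in the DMSO-frozen libraries and 14.5, 14.0 and 14.9 CPM in the fresh libraries. The osmolyte-frozen libraries lay above the fresh ones and overlapped the DMSO-frozen ones. ZNF91, which represses SVA elements, had a log2 fold change of 0.46 that did not pass (adjusted p = 0.0624, edgeR). ZNF224, a repressor of the aldolase A gene, rose by 0.57 on the log2 scale (adjusted p = 0.0105, edgeR). The imprinted gene ZNF331 had a log2 fold change of 0.00 and ZNF568, whose mouse counterpart represses a placental Igf2 transcript, of 0.05, and neither passed.

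**Figure D2:**
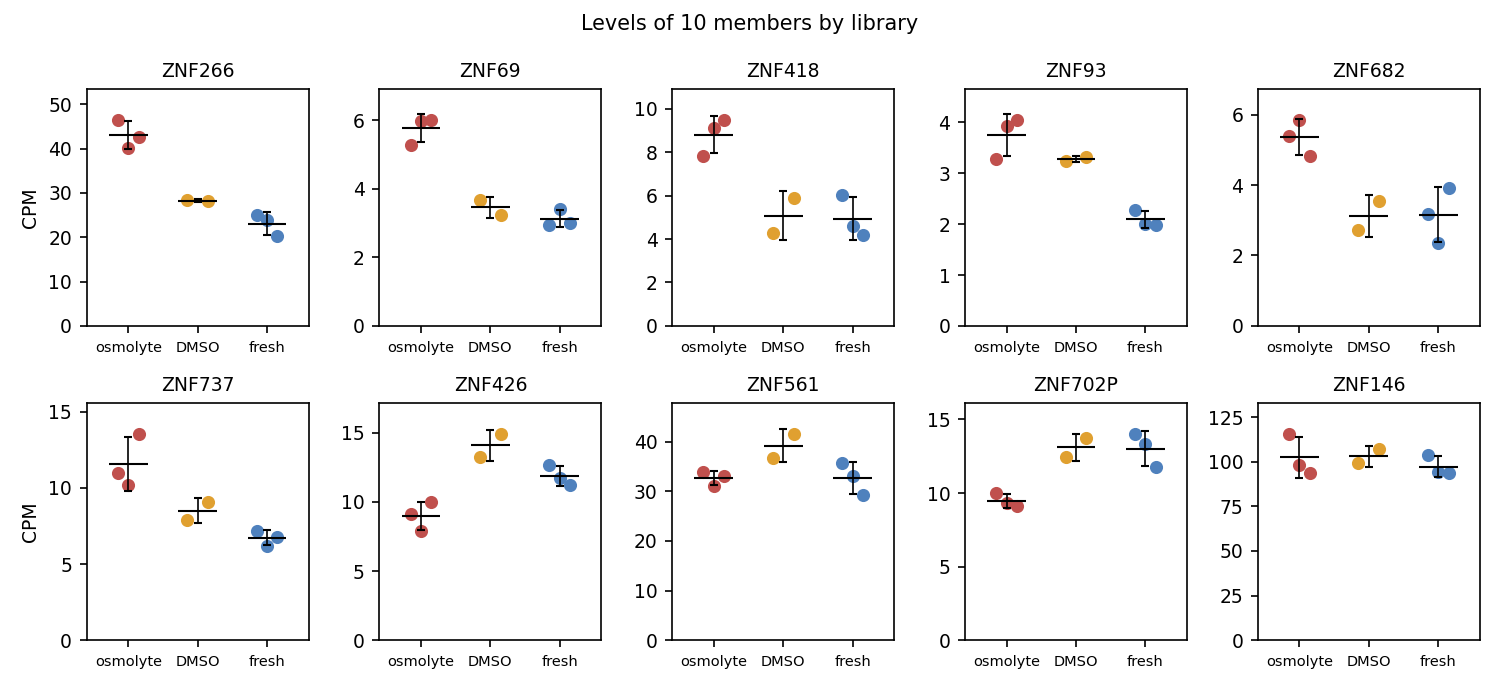
Each panel gives the CPM of 1 member in the osmolyte-frozen (3), DMSO-frozen (2) and fresh (3) libraries, with a point per library, the mean as a bar and the SD as error bars. ZNF266 and ZNF69 are highest in osmolyte-frozen cells, ZNF426 and ZNF702P lowest there, and ZNF146, the member with the highest CPM, overlaps in all groups.

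Among the 5 members with the highest level per kilobase, ZNF428, ZNF358, ZNF580 and ZNF83 rose in osmolyte-frozen against fresh cells, by log2 fold changes of 0.40, 0.38, 0.33 and 0.43. The calls of ZNF358 and ZNF580 ended without the fresh library held with DMSO, that of ZNF358 also with the hold time as a covariate and that of ZNF580 also without SGC. ZNF83 stood at 48.8, 54.2 and 51.4 CPM in the SMC, SGC and SGI libraries, 38.0 and 44.2 CPM in the DMSO-frozen libraries and 40.2, 35.2 and 39.4 CPM in the fresh libraries. Its osmolyte-frozen libraries lay above all others, and the DMSO-frozen and fresh ones overlapped. ZNF146 stood at 115.5, 98.4 and 93.9 CPM in the SMC, SGC and SGI libraries, 99.1 and 107.4 CPM in the DMSO-frozen libraries and 104.0, 94.3 and 93.6 CPM in the fresh libraries. The groups overlapped throughout, and its log2 fold change against fresh was 0.08 ± 0.08 (SE). ZNF428 overlaps SRRM5 and ZNF146 overlaps ZNF565, and whether counting used strand is not given in the sources used here.

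Setting osmolyte-frozen against DMSO-frozen cells compares groups that differed in solution, cooling rate and hold time together. Here 35 members were higher (15%) and 9 lower (3.86%) in edgeR's quasi-likelihood test, against 13.6% higher and 16.5% lower over all genes. In 88 members (37.8%) every osmolyte-frozen library lay above both DMSO-frozen ones, against 29.1% of all genes, and in 29 (12.4%) below both, against 27.7%. The share of members called higher was near that of all genes, and the share called lower was below it. The members' median log2 fold change was 0.15, against 0.04 over all genes. The median was 0.08 in ZNF genes on other chromosomes and 0.21 in the other genes of chromosome 19. In genes of like level and coding length it was 0.08, beside 0.09 in the 154 members within the same limits. Of those 154, 9.74% were higher and 3.9% lower, against 17.5% and 11.6% of the like genes. Of the 35, 32 were also among the 74 higher than in fresh cells (91.4% of the 35 and 43.2% of the 74), a count that both comparisons draw from the same osmolyte-frozen libraries. Counts in this comparison rest on the 2 DMSO-frozen libraries. Without the one held 1 h they were 15 higher and 5 lower, and without the one held 0 h 16 higher and 1 lower. Without SGC 4 members were lower, and with library totals in place of TMM scaling the split was 43 higher and 5 lower.

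ZNF540 and ZNF585B had the largest rises, with log2 fold changes of 1.47 and 1.46, at low levels. ZNF540 stood at 1.13, 1.74 and 1.26 CPM in the SMC, SGC and SGI libraries, 0.437 and 0.552 CPM in the DMSO-frozen libraries and 0.626, 1.00 and 0.582 CPM in the fresh libraries. The DMSO-frozen libraries were its lowest. ZNF585B shared 26.6% of its 50-base stretches with another gene, chiefly its neighbour ZNF585A, and lost its call without either DMSO-frozen library, while ZNF540 lost its call without the one held 1 h. ZNF266 was higher by 0.61 ± 0.10 on the log2 scale (SE; adjusted p = 0.000216, edgeR) and kept the call in all 15 alternative settings. The others among the 10 largest were ZNF880, ZNF418, ZNF682, ZNF69, ZNF77, ZNF345 and ZNF579, at log2 fold changes between 0.56 for ZNF579 and 0.84 for ZNF880. With the hold time as a covariate the call of ZNF77 ended, and without SGC that of ZNF345. Without the DMSO-frozen library held 1 h the calls of ZNF418, ZNF682 and ZNF345 ended, and without the one held 0 h those of ZNF880, ZNF69, ZNF77, ZNF345 and ZNF579.

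The 9 members lower than in DMSO-frozen cells were ZNF426, ZNF616, ZNF788, ZNF702P, ZNF614, ZNF473, ZNF507, ZNF561 and ZNF260. Their log2 fold changes ran from -0.65 for ZNF426 to -0.25 for ZNF260. ZNF260 kept its call in 5 of 15 alternative settings, and ZNF473 and ZNF616 each in 8 of 15. With the hold time as a covariate the calls of ZNF260, ZNF473, ZNF561, ZNF614, ZNF616 and ZNF788 ended. ZNF426 kept its call in all 15 alternative settings (adjusted p = 0.000669, edgeR), and the 8 others lost theirs without the DMSO-frozen library held 0 h. ZNF473, a protein that associates with the U7 particle, which processes the 3′ ends of histone transcripts, stood at 7.19, 6.70 and 8.44 CPM in the SMC, SGC and SGI libraries, 9.70 and 10.2 CPM in the DMSO-frozen libraries and 8.90, 7.46 and 8.30 CPM in the fresh libraries. The DMSO-frozen libraries were its highest, and osmolyte-frozen and fresh ones overlapped. ZNF561 stood at 34.0, 31.1 and 33.0 CPM in the SMC, SGC and SGI libraries, 36.8 and 41.5 CPM in the DMSO-frozen libraries and 35.8, 33.1 and 29.3 CPM in the fresh libraries, and its log2 fold change against fresh cells was 0.00. In ZNF561, too, the DMSO-frozen libraries were highest. The ZNF266, ZNF426 and ZNF561 promoters were printed above with TGACGTCA in capitals, and were chosen because these genes differed in direction. In osmolyte-frozen cells ZNF266 was higher in both comparisons, ZNF426 lower in both and ZNF561 lower against DMSO-frozen cells. ZNF121 and ZNF562, with the same motif in the same cluster, were not called in either comparison. Their log2 fold changes were 0.02 and 0.12 against DMSO-frozen cells and 0.29 and 0.17 against fresh cells.

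DMSO-frozen cells were set against fresh ones to ask what freezing with the conventional cryoprotectant changed. In edgeR's quasi-likelihood test 0 members were higher and 0 lower, against 1.25% and 0.617% of all genes. At an unadjusted p under 0.05, 23 members were higher (9.87%) and 1 lower (0.429%), against 7.2% higher and 5.78% lower over all genes. Taken either way this was 10.3% of members and 13% of all genes. DESeq2 called 1 member higher. That member was ZNF260, at 32.0 and 34.5 CPM in the DMSO-frozen libraries held 1 h and 0 h, against 27.8, 26.4 and 23.8 CPM in the fresh libraries. Its DMSO-frozen libraries lay above the fresh ones (log2 fold change 0.35 ± 0.09 SE, adjusted p = 0.0529 in edgeR and 0.0181 in DESeq2). Without the fresh library at 0 h, 2 members were called higher, ZNF260 and ZNF550. The members' median log2 fold change was 0.11, against -0.01 over all genes and 0.06 in ZNF genes on other chromosomes. In genes of like level and coding length the median was 0.02, beside 0.13 in the 154 members within the same limits. In the other genes of chromosome 19 it was -0.09. The median of all members was 0.06 without the fresh library in medium and 0.16 without the DMSO-frozen library held 1 h. A log2 fold change above 0 was seen in 171 members (73.4%), against 48.3% of all genes and 65.8% of ZNF genes on other chromosomes. In 51 members (21.9%) both DMSO-frozen libraries lay above all fresh ones and in 4 (1.72%) below, against 16% and 15.4% of all genes. Among ZNF genes on other chromosomes these shares were 20.6% and 7.39%.

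**Figure D3:**
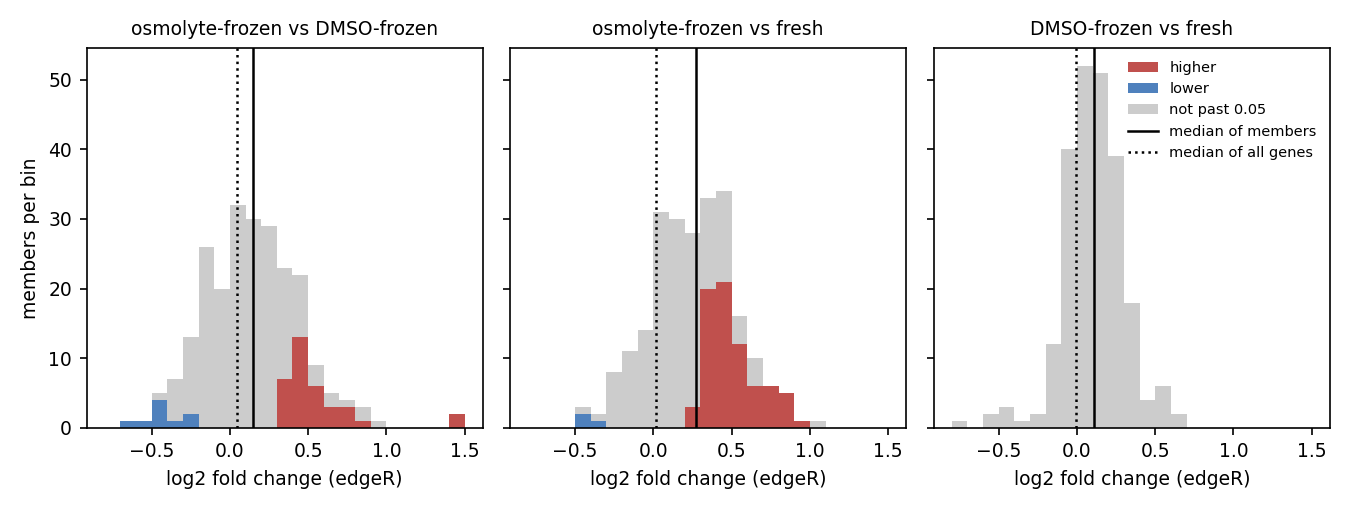
The 233 members are counted by log2 fold change in the 3 comparisons, with those called higher or lower in colour, in bins of 0.1. The solid line is the members' median and the dotted line that of all genes tested, and the members' median lies to the right in each panel, at 0.15, 0.27 and 0.11.

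Of the 74 members higher in osmolyte-frozen than in fresh cells, 55 had a DMSO-frozen mean between the osmolyte-frozen and the fresh mean (74.3%). The share was 76.9% of the 2974 genes called higher in all. Single libraries were also set side by side, as values with no test. At 1 h, the SGI library was above the DMSO-frozen library in 159 of 233 members (68.2%, against 50.4% of all genes) and SGC in 150 (64.4%, against 51.7%). The DMSO-frozen library held 1 h was above the fresh library held 1 h with DMSO in 142 members (60.9%, against 49.6% of all genes), with a median log2 difference of 0.06. The fresh library with DMSO was in turn above the fresh library in medium in 148 members (63.5%, against 47.5% of all genes), with a median of 0.12. Each of these sets 1 library against 1 other. Within the DMSO-frozen group, the library held 1 h was above that held 0 h in 81 members (34.8%, against 48.9% of all genes).

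The clusters were described in order along the chromosome, in hg19 coordinates. In the comparison of osmolyte-frozen with fresh cells the median log2 fold change was above 0 in all 9 clusters of at least 5 members. Beside the counts given for each cluster, 19.1% of all genes tested were called higher and 21% lower. It was 0.45 in the 5 members at 2.82 to 2.94 Mb, with 2 higher, and 0.27 in the 13 members at 7.07 to 9.88 Mb, with 6 higher and 1 lower. In the 27 members at 11.59 to 12.74 Mb it was 0.30, with 8 higher and 1 lower. The cluster at 19.78 to 24.31 Mb, a primate-expanded group that includes ZNF91, ZNF93 and ZNF43, had the highest median, 0.46, with 12 of 27 members higher and 0 lower. Those 12 were ZNF93, ZNF737, ZNF682, ZNF738, ZNF708, ZNF85, ZNF675, ZNF431, ZNF493, ZNF43, ZNF254 and ZNF714, with log2 fold changes between 0.84 and 0.35.

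On the long arm, the cluster at 35.17 to 35.45 Mb (5 members) had a median log2 fold change of 0.16 and 1 higher (20%). The one at 36.67 to 38.27 Mb (26 members) had 0.18 and 6 higher (23.1%). Both shares were near the 19.1% of all genes tested. The cluster at 44.04 to 45.58 Mb (23 members) had 0.20 and 7 higher. The 39 members at 52.07 to 54.08 Mb had 0.17, with 11 higher and 1 lower, and the 59 members at 55.99 to 58.99 Mb had 0.27, with 20 higher and 0 lower. The difference between clusters was not tested. Members of a cluster share sequence and neighbourhood, and are not replicates of one another.

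**Figure D4:**
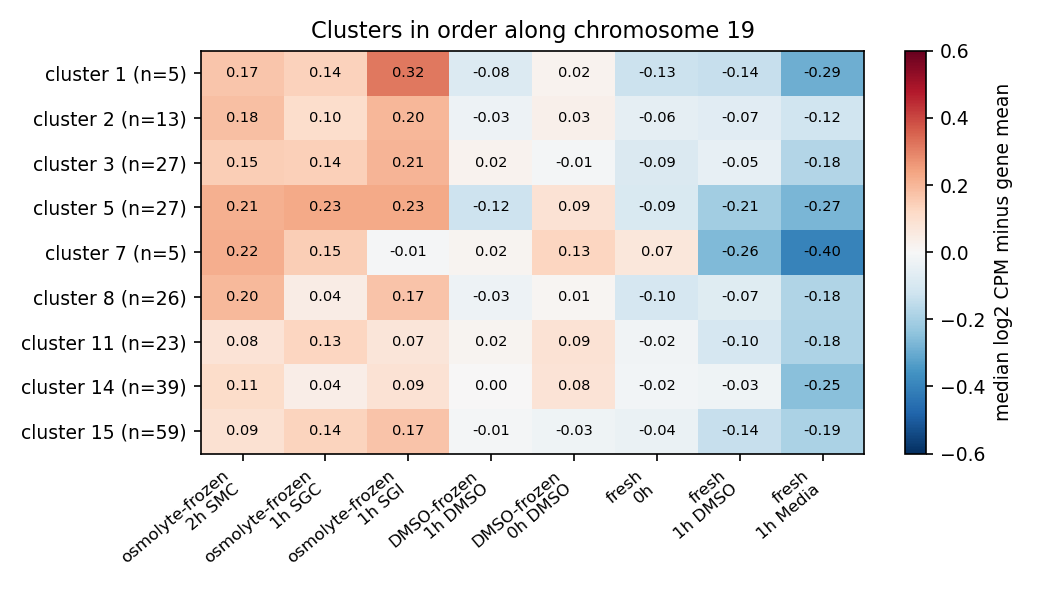
Rows are the 9 clusters of at least 5 members in order along chromosome 19 and columns are the 8 libraries, and each cell gives the cluster's median of log2 CPM minus the gene's mean over 8 libraries. The cluster labelled 5 has 0.21 to 0.23 in the osmolyte-frozen libraries, -0.12 and 0.09 in the DMSO-frozen libraries and -0.27 to -0.09 in the fresh libraries.

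For 228 members GENCODE had a transcript annotated as protein-coding, and 191 of them (83.8%) matched a KRAB A box pattern. The other members, such as ZNF702P and ZNF788, had none and were not searched. Of the 191, 61 were higher (31.9%) and 1 lower in osmolyte-frozen than in fresh cells, with a median log2 fold change of 0.27. Of the 37 without a match, 11 were higher (29.7%) and 0 lower, with a median of 0.24. Over all genes tested, 19.1% were higher and 21% lower. The medians differed more between DMSO-frozen and fresh cells, at 0.13 with a KRAB match and -0.01 without. A pattern can miss a KRAB, so a missing match does not show that a gene lacks one. Some members without a match had GC-rich transcripts, and KRAB match and GC content were not separated. Fingers were counted in the longest stretch without a stop codon, which may not be the coding frame. A count of 0, as for ZNF580 and ZNF787, therefore does not show that a protein lacks fingers. The number of finger motifs so counted, 12 in the median and 0 to 32 in range, had a Pearson correlation across genes of 0.05 with the log2 fold change of osmolyte-frozen against fresh cells (n = 228 genes, Spearman 0.03). The GC content of the transcript had -0.09 with that fold change and -0.26 with that of DMSO-frozen against fresh cells (n = 233 genes, Spearman -0.11 and -0.24). All genes share the same 8 libraries, so these are descriptions.

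Similar copies bear on the counts. At least 20% of the 50-base stretches were shared with another gene in 24 members. Of these, 9 were higher in osmolyte-frozen than in fresh cells (37.5%) and 0 lower. Among the 209 members under that limit, 65 were higher (31.1%) and 3 lower, and the median log2 fold change was 0.27. Over all genes tested, 19.1% were higher and 21% lower. Another entry overlapped 22 members.

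The partners through which KRAB proteins act were read from a list of 35 genes. Of these, 2 were higher (MTA1 and DNMT3B) and 13 lower in osmolyte-frozen than in fresh cells, in edgeR's quasi-likelihood test, beside 19.1% higher and 21% lower over all genes. TRIM28, the scaffold itself, averaged 190.0 ± 13.4 CPM in osmolyte-frozen (SD, n = 3), 199.5 ± 13.7 CPM in DMSO-frozen (SD, n = 2) and 208.9 ± 10.2 CPM in fresh cells (SD, n = 3), and neither it nor SETDB1 passed in any comparison. The maintenance methyltransferase DNMT1 averaged 108.4 ± 10.5 CPM in osmolyte-frozen, 170.0 ± 5.44 CPM in DMSO-frozen and 199.5 ± 2.05 CPM in fresh cells, a log2 fold change of -0.88 against fresh (adjusted p = 7.69e-08, edgeR). CBX5, which encodes heterochromatin protein 1 alpha, fell by 0.69 on the log2 scale, and CHD4, the remodelling ATPase of NuRD, fell by 0.66. ATF7IP, the partner of SETDB1, fell by 0.55, and FAM208A, a subunit of the HUSH silencing complex, fell by 0.42. Against DMSO-frozen cells 1 of the 35 was higher and 7 were lower, the lower share being near the 16.5% of all genes, and between DMSO-frozen and fresh cells 0 were called by edgeR.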

How the data were processed

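The data are RNA sequencing counts of 8 libraries. The submitters' processing notes name the build hg19, CASAVA 1.9, HTSeq and TopHat, whose version reads 12.0.6. Annotation release and strand setting: not given in the sources used here. Raw counts were used as the authors deposited them, 1 per gene and library, per the file headers. Every count was even, with 0 odd values, for which no reason is given, and counts divided by 2 were tried as an alternative. The deposited RPKM values, which the authors scaled to coding length and library total, served only to recover the library total behind them. The counts were 64.0% to 66.9% of that total in osmolyte-frozen, 73.0% and 72.1% in DMSO-frozen and 66.2% to 70.4% in fresh libraries. The table held 23398 entries. Of 49 identifiers listed more than once, 41 with identical counts were kept once and 8 were kept as separate entries. No library repeated another: on halved counts, chi-square over genes divided by its degrees of freedom was at least 6.48 for every pair.

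Groups followed the sample titles. The filter filterByExpr, with the states fresh and frozen, kept 15564 genes, which were scaled by TMM and tested with edgeR 4.0.16 in R 4.3.3 (glmQLFit with robust estimation, glmQLFTest). All 8 libraries entered 1 fit of 3 groups (residual degrees of freedom 5), with a biological coefficient of variation of 0.0971. Calls are at a Benjamini-Hochberg adjusted p under 0.05 over all genes tested. The standard error is the absolute log2 fold change over the square root of F. CPM are counts scaled to a common size with the TMM factors, log2 CPM used a prior count of 2, and CPM per kilobase used the deposited coding length. Alternatives were RLE size factors, library totals, no low-count filter, DESeq2 1.42.0, the hold time as a covariate, only libraries held 1 h, halved counts and each library left out.

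Finger and KRAB motifs came from the longest stretch without a stop codon, over the forward frames, of GENCODE transcripts annotated as protein-coding. The shared 50-base stretches came from GENCODE transcripts, and promoters from RefSeq (GRCh38.p14). Gene positions (hg19) were read from the deposited table. The genes named are, per comparison, the 10 largest rises and 10 largest falls among members past the threshold, the 5 with the highest CPM per kilobase, any called in all 3 comparisons (0 were), and 2 on each side of the count limit. Members and lists were chosen with earlier results of these data known. Since reads carry no molecular identifiers, they may not be independent molecules, and depth limits the members of low count most.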

Additional observations from a re-analysis of the deposited data

How the results depend on the processing

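Over 15 alternative settings no result reversed its direction. The members' median log2 fold change moved by less than the spread between libraries (SD 0.06) throughout. Leaving out 1 library at a time, it ran from 0.111 to 0.185 between osmolyte-frozen and DMSO-frozen cells, from 0.221 to 0.283 between osmolyte-frozen and fresh cells and from 0.062 to 0.164 between DMSO-frozen and fresh cells. In osmolyte-frozen against fresh cells the members called ran from 54 to 73 higher and from 2 to 6 lower over the libraries left out, the 6 being without the fresh library in medium, and only libraries held 1 h gave 1 lower. All genes called ran from 2393 to 2928 higher and from 2592 to 3230 lower. In osmolyte-frozen against DMSO-frozen cells the members called ran from 15 to 42 higher and from 1 to 10 lower, and all genes from 823 to 2373 higher and from 1313 to 2881 lower. There, only libraries held 1 h gave 23 members higher and 1 lower, with 891 genes higher and 1468 lower in all, library totals gave 5 members lower, and the hold time as covariate gave 3 lower. In DMSO-frozen against fresh cells the members called ran from 0 to 2 higher, with 0 lower, and RLE size factors, no low-count filter and DESeq2 gave 1 higher each. All genes ran from 56 to 215 higher and from 20 to 100 lower. No low-count filter gave 295 genes higher, DESeq2 gave 323 higher and 165 lower, and only libraries held 1 h gave 28 lower. In osmolyte-frozen against DMSO-frozen cells, 29 of the 44 members called were called again with the hold time as covariate. Of 23 named genes called in that comparison, 14 kept the call with that covariate. Only libraries held 1 h left 1 DMSO-frozen library. Fewer libraries enter the fits of 1 h and of libraries left out, and for the other settings the cause was not tested. Where a group was left with 1 library, it was assumed to vary like the others. No paired analysis was possible because the labels give no replicate numbers and each library is of another condition.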
